A study of Mus musculus with 18 samples.

Results

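The AN1-type zinc finger (Zfand) genes were examined in NIH-3T3 cells, an established line of mouse embryonic fibroblasts, exposed to the proteasome inhibitor carfilzomib (CFZ). The family was taken as the rows of the count table whose symbol is Zfand1, Zfand2a, Zfand2b, Zfand3, Zfand5 or Zfand6, which are 6 of 23420 gene rows. All 6 passed the expression filter, with raw counts from 48 to 8326 per library, and 11762 genes were tested in all. RNA came from wild-type (WT) cells and from an Nrf1-knockout line (Nrf1-KO, made with CRISPR/Cas9), each in DMSO, in 200 nM CFZ for 6 h or in 200 nM CFZ for 24 h, with 3 biological replicates in each of the 6 groups. All 18 cultures derive from this immortalized fibroblast line and were grown in serum-supplemented DMEM. The duration of DMSO is not given in the sources used here, so CFZ and time in culture cannot be told apart in a comparison with DMSO. The Nrf1-KO cells are a single line and its clonality is not stated in the sources used here, so a difference between Nrf1-KO and WT cannot be told apart from a difference between the lines that is unrelated to Nrf1.

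ZFAND proteins carry a zinc finger of the AN1 type. Some of them link ubiquitinated or misfolded proteins to the proteasome or to p97, the ATPase that extracts ubiquitinated proteins from complexes and membranes. ZFAND1, ZFAND2A and ZFAND2B have paired AN1 fingers, whereas ZFAND3, ZFAND5 and ZFAND6 combine an AN1 finger with a ubiquitin-binding finger of the A20 type. ZFAND2A (AIRAP) was named for its induction by arsenite, is encoded by a target gene of the heat shock factor HSF1 and binds the 19S cap of the proteasome. ZFAND5 (ZNF216) binds ubiquitin chains and the 26S proteasome and raises its activity, and is known from muscle wasting. Nrf1, encoded by Nfe2l1, is the transcription factor that raises proteasome gene expression when the proteasome is inhibited.

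The targeted gene was examined first. Nfe2l1 was at 448 ± 9.87 CPM (reads counted on a gene relative to the library's total, scaled with edgeR's TMM factors; mean ± SD, n = 3) in WT DMSO and 180.1 ± 5.27 in Nrf1-KO DMSO, and each Nrf1-KO library was below each WT library of the same treatment. At 6 h of CFZ the Nrf1-KO level was 419 ± 7.19 CPM, so reads on the targeted gene were still counted in the knockout line. Total counts ran from 8333148 to 23917081 per library, and the 18 libraries each correlated best with a library of their own group. All 9 fibroblast markers examined were above 1 CPM in every library. In WT their summed level was 33020 to 35890 CPM in DMSO, 28260 to 30700 at 6 h of CFZ and 8224 to 8510 at 24 h. In Nrf1-KO it was 27610 to 33910 CPM without CFZ, 28750 to 32460 after 6 h and 11080 to 13150 after 24 h. It was thus lower at 24 h in both lines, and at 6 h it was lower in WT and overlapped DMSO in Nrf1-KO. Of 13 markers of other cell types, 12 were in the table. Their summed level was 7.61 to 8.42 CPM in WT DMSO, 2.26 to 3.11 at 6 h and 6.91 to 8.16 at 24 h, and 14.2 to 16.6, 6.31 to 9.11 and 11.3 to 12.4 CPM in the same order in Nrf1-KO. The highest of them was Cdh1, an epithelial cadherin, at 0.333 to 13.03 CPM over the 18 libraries, whereas Epcam and Krt18, also epithelial, were at 0 in all of them and Krt8 reached 0.190. The other-type sum was higher in Nrf1-KO than in WT in every treatment and lower at 6 h than in DMSO in both lines. The part of these marker levels in the results was not tested. In RNA from whole cultures, fewer cells that express a gene and less RNA per cell cannot be told apart.

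Promoter sequences are shown for Zfand2a and Zfand5, the members with the largest rises in WT cells. They are the 250 bases before the RefSeq start (GRCm38.p6), at chr5:139484492-139484741 on the minus strand and chr19:21272028-21272277 on the plus strand, written 5′ to 3′. Capitals mark a heat shock element pair (TTCNNGAA) in Zfand2a and antioxidant response element cores (TGACNNNGC, read on either strand), letters bound by CNC-bZIP factors such as Nrf1, in Zfand5.
Zfand2a: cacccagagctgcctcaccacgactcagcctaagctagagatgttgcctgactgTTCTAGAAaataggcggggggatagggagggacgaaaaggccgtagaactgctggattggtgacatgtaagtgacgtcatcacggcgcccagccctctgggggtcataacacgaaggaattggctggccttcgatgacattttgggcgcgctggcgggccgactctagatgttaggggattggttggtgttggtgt
Zfand5: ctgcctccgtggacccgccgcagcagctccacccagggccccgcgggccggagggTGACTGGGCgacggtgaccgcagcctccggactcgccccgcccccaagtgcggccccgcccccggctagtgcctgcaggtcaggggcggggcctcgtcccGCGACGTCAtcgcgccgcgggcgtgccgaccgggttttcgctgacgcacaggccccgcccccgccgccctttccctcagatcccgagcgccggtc

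The heat shock match in Zfand2a is TTCTAGAA and starts at position -196 from the RefSeq start, and the 2 matches in Zfand5 start at -195 and -95. Motifs were searched on both strands in windows of 300 bases, of which 250 lie before the start, and the 5 members other than Zfand1 had 7 windows in all. One Zfand6 window held 3 antioxidant response element cores and the other held 1 heat shock pair of the form GAANNTTC, and the windows of Zfand3 and Zfand2b held no match. The Zfand6 window with the heat shock pair (84679347 to 84679646) lies within the gene as annotated in GENCODE M21. So does the Zfand3 window (30004789 to 30005088), and neither covers bases before the annotated gene. No member window held TGATGNAA, a C/EBP-ATF element. Of 32851 RefSeq windows, 12.4% held an antioxidant response element core, 15.1% a heat shock pair of either form and 3.97% TGATGNAA. A match describes letters in a window and is not a binding site shown in these cells.

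The 6 genes lie on 6 chromosomes (GRCm38, GENCODE M21, 1-based; the build the authors counted on is not given in the sources used here, so the reads need not have been counted on these models). Zfand2a is on chromosome 5 at 139471211 to 139484549 (minus strand, ENSMUSG00000053581.13) and Zfand5 on chromosome 19 at 21272278 to 21286840 (plus strand, ENSMUSG00000024750.11). Zfand3 is on chromosome 17 at 30004733 to 30210828 (plus strand) and Zfand6 on chromosome 7 at 84613766 to 84689959 (minus strand). Zfand1 is on chromosome 3 at 10339953 to 10351317 (minus strand) and Zfand2b on chromosome 1 at 75168646 to 75171629 (plus strand). All are annotated as protein-coding. Of the stretches of read length in Zfand1 transcripts, 4.29% also occur in Gm14038, and 1.53% of the Zfand6 exonic bases are overlapped by 2610206C17Rik on the other strand. No other member shared sequence or exonic overlap with another gene. Where reads were counted without strand, those over the Zfand6 overlap could belong to either gene.

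Scaled by the total exonic length of each gene in the annotation, Zfand3 was the most abundant member in WT DMSO at 26.3 ± 0.529 CPM per kb (SD, n = 3). Zfand2b followed at 14.9 ± 0.347, Zfand6 at 12.2 ± 0.269, Zfand5 at 8.90 ± 0.213, Zfand2a at 7.61 ± 0.390 and Zfand1 at 2.18 ± 0.221. In Nrf1-KO DMSO, Zfand2a (9.60 ± 0.380 CPM per kb) and Zfand5 (9.53 ± 0.112) differed by less than either SD. With CFZ, Zfand2a had the highest level per kb in WT at 6 h (70.3 ± 0.901) and 24 h (80.5 ± 1.24) and in Nrf1-KO at 6 h (39.4 ± 0.775) and 24 h (133.7 ± 1.62). Zfand3 was next in each of these 4 groups, from 36.8 ± 0.589 in Nrf1-KO at 6 h to 48.1 ± 1.21 in Nrf1-KO at 24 h. The values depend on the transcripts counted in each length, which may differ from those the authors used.

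**Figure D1:**
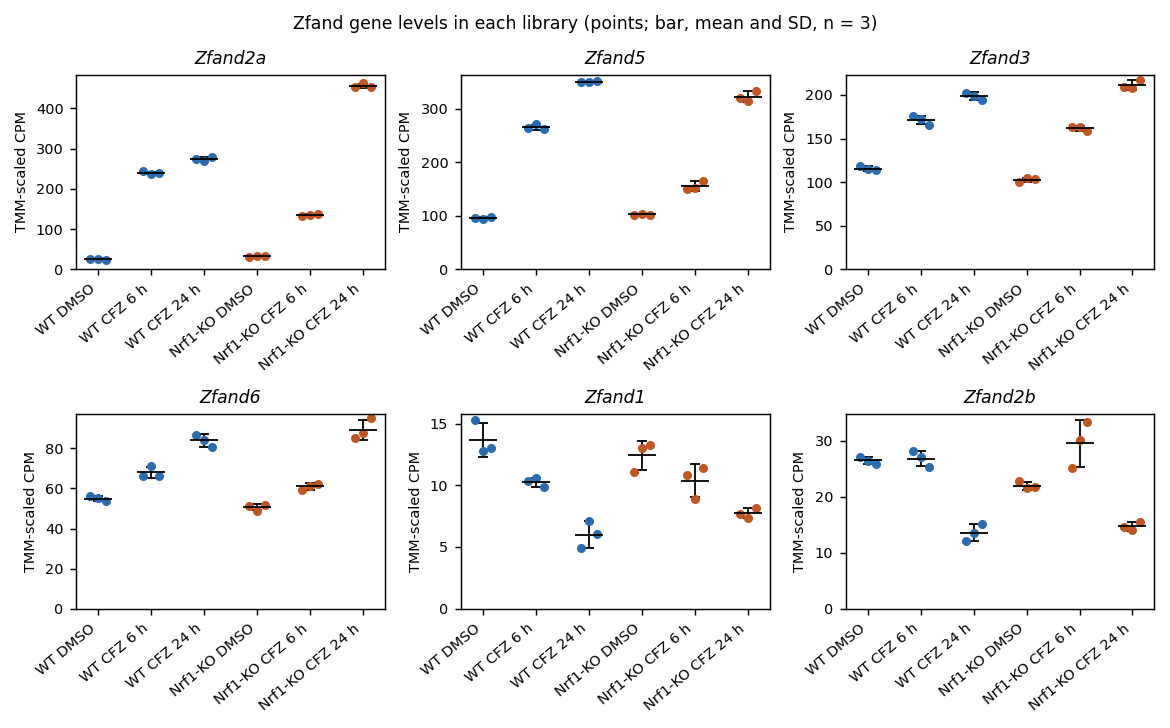
TMM-scaled CPM of the 6 Zfand genes in the 18 libraries, on separate linear axes that start at 0; points are libraries, horizontal bars with error bars group means and SD (n = 3), blue WT and orange Nrf1-KO. Zfand2a in Nrf1-KO cells at 24 h sits between 452 and 462 CPM, above all other libraries, and Zfand1 and Zfand2b are lowest at 24 h.

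Zfand2a rose most. In WT DMSO it was at 26.6, 26.8 and 24.4 CPM, in WT at 6 h of CFZ at 243, 238 and 238, and in WT at 24 h at 275, 269.6 and 278. In the Nrf1-KO line it was at 31.9, 34.2 and 32.0 CPM in DMSO, 131.4, 135 and 136.6 at 6 h, and 452, 462 and 453 at 24 h. No 2 of the 6 groups overlapped, and their order was WT DMSO, Nrf1-KO DMSO, Nrf1-KO 6 h, WT 6 h, WT 24 h and Nrf1-KO 24 h, with the last 17.6 times the first. At 6 h the Nrf1-KO libraries were below the WT libraries, and at 24 h they were above them.

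By edgeR's quasi-likelihood test, Zfand2a rose in WT by 3.20 on the log2 scale at 6 h (SE 0.041, adjusted p = 3.75e-33), or 9.22-fold, and was the 32nd largest rise among 11762 genes. In Nrf1-KO cells at 6 h the rise was 2.04 (SE 0.0414, adjusted p = 4.14e-28), or 4.11-fold. At 24 h it was 3.40 in WT (SE 0.0406, adjusted p = 1.35e-34) and 3.80 in Nrf1-KO (SE 0.0382, adjusted p = 9.5e-37), or 10.6-fold and 13.96-fold. Zfand2a ranked 99th from the highest in Nrf1-KO at 6 h, and 92nd in WT and 91st in Nrf1-KO at 24 h. From 6 to 24 h it rose by 0.19 in WT (SE 0.0322, adjusted p = 3.02e-06) and by 1.76 in Nrf1-KO (SE 0.0337, adjusted p = 7.08e-29). In DMSO it was 0.33 higher in Nrf1-KO than in WT (SE 0.0495, adjusted p = 1.4e-06).

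Zfand5 rose next most in WT at both times and in Nrf1-KO at 24 h, while in Nrf1-KO at 6 h its rise was close to that of Zfand3. In WT it was at 94.9, 93.9 and 98.2 CPM in DMSO, 264, 270.5 and 262 at 6 h and 349, 349.9 and 351 at 24 h. The Nrf1-KO libraries had 102.3, 103.7 and 101.3 CPM in DMSO, 149.2, 151.2 and 165.5 at 6 h and 320.5, 314 and 333 at 24 h. No 2 groups overlapped, and at 6 h all Nrf1-KO libraries lay below the WT libraries. At 24 h the lines were close, with the Nrf1-KO libraries just below the WT libraries.

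The rise of Zfand5 in WT was 1.47 at 6 h (log2, SE 0.0371, adjusted p = 1.07e-25 by edgeR's quasi-likelihood test) and 1.87 at 24 h (SE 0.0367, adjusted p = 4.78e-29). In Nrf1-KO cells it was 0.60 at 6 h (SE 0.0385, adjusted p = 8.72e-15) and 1.66 at 24 h (SE 0.0362, adjusted p = 6.77e-28). From 6 to 24 h it rose by 0.40 in WT (SE 0.0343) and 1.06 in Nrf1-KO (SE 0.0362). Both lines thus rose at both times, with the smaller early rise in Nrf1-KO.

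Zfand3, which was first described in testis (Tex27) and has both finger types, rose at both times in both lines. It was at 118.2, 115 and 113.6 CPM in WT DMSO, 175.4, 172.8 and 165.8 at 6 h and 203, 198.9 and 194 at 24 h. In Nrf1-KO it was at 100.3, 104.5 and 103.3 CPM in DMSO, 163.3, 162.9 and 158.6 at 6 h and 208.9, 207.8 and 217.5 at 24 h. No 2 groups overlapped, but the lines lay close together in each treatment. The rise was 0.57 (SE 0.0347) at 6 h and 0.78 (SE 0.0343) at 24 h in WT, and 0.66 (SE 0.0356) and 1.04 (SE 0.034) in Nrf1-KO, with adjusted p from 3e-23 to 1.7e-15 by edgeR's quasi-likelihood test.

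Zfand6 (AWP1), the remaining member with both finger types, rose less. It was at 56.0, 55.1 and 53.6 CPM in WT DMSO, 66.4, 71.4 and 66.3 at 6 h and 86.9, 84.4 and 80.7 at 24 h. The Nrf1-KO libraries had 51.3, 48.9 and 51.9 CPM in DMSO, 59.1, 61.4 and 62.5 at 6 h and 85.1, 87.7 and 95.0 at 24 h. Among groups next to each other in level, WT 24 h and Nrf1-KO 24 h overlapped, and no others did. The rise was 0.31 (SE 0.0473) and 0.61 (SE 0.0457) in WT and 0.26 (SE 0.0495) and 0.81 (SE 0.0447) in Nrf1-KO at 6 h and then 24 h, with adjusted p up to 2.84e-05 by edgeR's quasi-likelihood test.

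Zfand1, whose product brings p97 and the proteasome to stress granules after arsenite, fell. In WT it was at 15.3, 12.8 and 13.0 CPM in DMSO, 10.3, 10.6 and 9.87 at 6 h and 4.88, 7.08 and 6.01 at 24 h. In Nrf1-KO it was at 11.1, 13.0 and 13.2 CPM in DMSO, 10.9, 8.88 and 11.4 at 6 h and 7.68, 7.38 and 8.18 at 24 h. The WT groups did not overlap across time, whereas Nrf1-KO DMSO and 6 h did. It fell by 0.42 (SE 0.102, adjusted p = 0.000444) at 6 h and 1.16 (SE 0.113, adjusted p = 4.99e-11) at 24 h in WT, and by 0.29 (SE 0.106, adjusted p = 0.0161) and 0.70 (SE 0.104, adjusted p = 3.05e-07) in Nrf1-KO by edgeR's quasi-likelihood test. The fall at 6 h in Nrf1-KO did not pass without the third DMSO library (adjusted p = 0.0901) or the second 6 h library (adjusted p = 0.179), and its adjusted p ran from 0.00104 to 0.179 over 25 alternatives.

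Zfand2b (AIRAPL), an ER-anchored p97 partner that shares the paired AN1 fingers of Zfand2a and is known as the constitutive relative, had a different course. In WT it was at 27.1, 26.4 and 25.9 CPM in DMSO, 28.1, 27.0 and 25.3 at 6 h and 12.1, 13.5 and 15.1 at 24 h. The Nrf1-KO libraries had 22.8, 21.5 and 21.6 CPM in DMSO, 25.02, 30.1 and 33.3 at 6 h and 14.6, 14.0 and 15.4 at 24 h. In both lines the 24 h libraries were the lowest, and the 6 h libraries overlapped DMSO in WT but not in Nrf1-KO. By edgeR's quasi-likelihood test, the value at 6 h was 0.02 in WT (SE 0.0726, adjusted p = 0.846), with its sign turned under DESeq2 and both other scalings, and it rose by 0.41 in Nrf1-KO (SE 0.0754, adjusted p = 1.99e-05). At 24 h it fell by 0.94 in WT (SE 0.0824, adjusted p = 4.15e-12) and by 0.58 in Nrf1-KO (SE 0.0808, adjusted p = 8.33e-08).

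In all, 5 of the 6 members were called in WT at 6 h, where 71.9% of all genes tested were called, with 4 higher (35.6% of all genes) and 1 lower (36.2%). At 24 h in WT all 6 were called (83.8%), 4 higher (43.2%) and 2 lower (40.5%). In Nrf1-KO at 6 h all 6 were called (69.5%), 5 higher (34.5%) and 1 lower (35%). In Nrf1-KO at 24 h all 6 were called (85.5%), 4 higher (44.4%) and 2 lower (41.1%). These shares of all genes are large, so the counts of members are read here beside the sizes of change. From 6 to 24 h all 6 were called in both lines, 4 higher and 2 lower, against 72.4% of genes in WT (36.9% higher, 35.4% lower) and 77% in Nrf1-KO (38.7% higher, 38.3% lower).

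With a minimum of 2-fold, Zfand2a and Zfand5 were called in WT at 6 h, 2 members where 9.63% of all genes were called (3.98% higher). In WT at 24 h there were 3 (25% of genes), Zfand2a and Zfand5 higher (10.5%) and Zfand1 lower (14.5%). In Nrf1-KO it was 1 at 6 h, Zfand2a (7.56% of genes, 3.3% higher), and 3 at 24 h, Zfand2a, Zfand5 and Zfand3 (26.7% of genes, 11.5% higher). From 6 to 24 h there were 0 in WT (12.1%) and 2 in Nrf1-KO (15.8%), Zfand2a and Zfand5. Zfand2a was the member past 2-fold in all 4 comparisons with DMSO. Scaling by library size alone in place of TMM moved the median of all genes by -0.13 in WT and -0.11 in Nrf1-KO at 6 h and by -0.10 and -0.18 at 24 h. Apart from Zfand2b in WT at 6 h, no member's direction against DMSO turned under any scaling run.

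**Figure D2:**
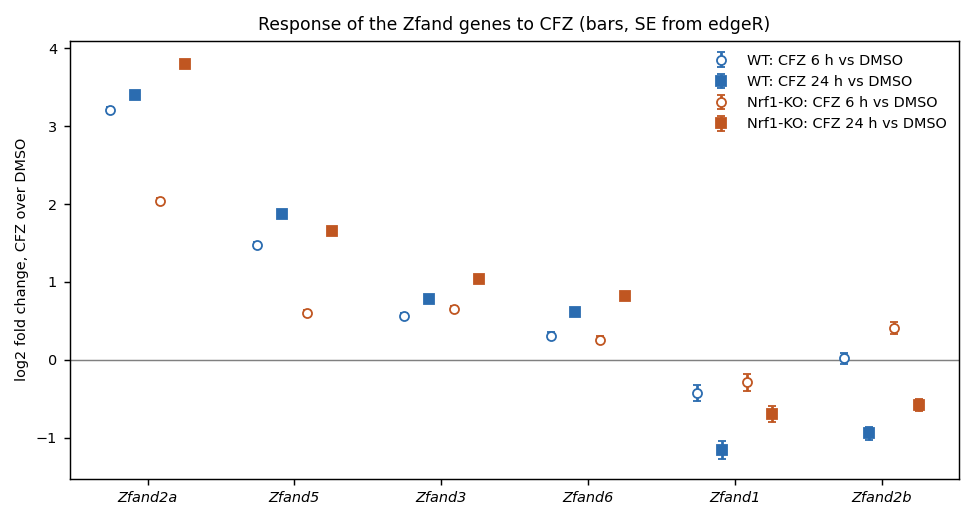
Log2 fold change of each Zfand gene for CFZ against DMSO at 6 and 24 h, blue WT and orange Nrf1-KO; open circles are 6 h, filled squares 24 h, and error bars SE. Zfand2a reaches 3.40 in WT and 3.80 in Nrf1-KO at 24 h, and at 24 h Zfand1 and Zfand2b are the members below 0.

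Summed over the 6 genes, the level was 332 ± 5.03 CPM (SD, n = 3) in WT DMSO, 781 ± 12.1 at 6 h and 926 ± 3.75 at 24 h. The Nrf1-KO sums were 323 ± 3.02 CPM in DMSO, 552 ± 14.7 after 6 h and 1101 ± 18.6 after 24 h. The share of the summed CPM taken by Zfand2a was 7.80% in WT DMSO, 30.7% at 6 h and 29.6% at 24 h, and in Nrf1-KO 10.1%, 24.3% and 41.4%. The family total at 24 h in Nrf1-KO was thus the highest, and the largest single part of it was Zfand2a. These are shares of reads, not scaled by gene length, and per kb Zfand2a was the highest member in each CFZ group.

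**Figure D3:**
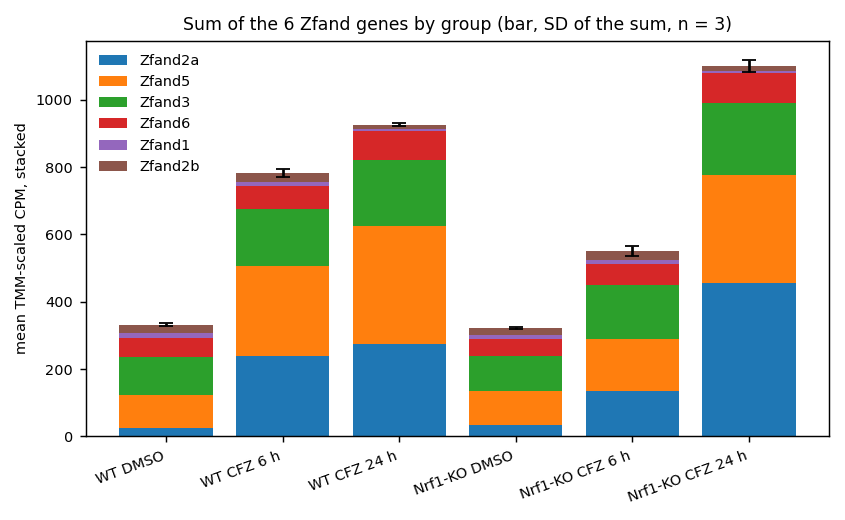
Stacked TMM-scaled CPM (group means) of the 6 Zfand genes in each of the 6 groups, the bars starting at 0 and the error bars showing the SD of the sum (n = 3). The total is 323 CPM in Nrf1-KO DMSO and 1101 CPM in Nrf1-KO at 24 h, with Zfand2a as the largest part there.

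Without CFZ the differences between the lines were small. In DMSO, 5 of 6 members were called between Nrf1-KO and WT (54.7% of all genes were; with a minimum of 2-fold, 0 members and 4.97% of genes), 2 higher (25.7%) and 3 lower (29.1%). Zfand2a was 0.33 higher, Zfand2b 0.27 lower (SE 0.0707, adjusted p = 0.00151 by edgeR's quasi-likelihood test) and Zfand3 0.17 lower (SE 0.0353, adjusted p = 0.000126). Zfand5 was 0.10 higher (adjusted p = 0.0321) and Zfand6 0.11 lower (adjusted p = 0.0413), while Zfand1 did not pass (-0.13, adjusted p = 0.224). Zfand5 was not called without the second WT DMSO library (adjusted p = 0.107) or without the first or second Nrf1-KO DMSO library (0.0614 and 0.0902), with adjusted p from 0.00217 to 0.107 over 25 alternatives. Zfand6 lost its call in 15 of 25 alternatives (adjusted p from 0.0378 to 0.246).

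Within CFZ, the lines differed most in Zfand2a and Zfand5 at 6 h. By edgeR's quasi-likelihood test, Zfand2a was 0.84 lower in Nrf1-KO than in WT (SE 0.0347, adjusted p = 1.49e-19) and Zfand5 0.78 lower (SE 0.0368, adjusted p = 4.47e-18), among 4 of 6 members called (61.3% of all genes), all of them lower (30.8% of genes were lower and 30.5% higher). None of the 6 passed a minimum of 2-fold (7.31% of genes). Zfand6 was 0.16 lower and Zfand3 0.08 lower (adjusted p = 0.0406), but Zfand3 lost its call in 9 of 25 alternatives (adjusted p from 0.0115 to 0.719) and Zfand6 in 2, upper-quartile scaling and library size alone (from 0.00157 to 0.0971). Zfand2b (0.11, adjusted p = 0.199) and Zfand1 (0.0020, adjusted p = 0.991) were not called, although Zfand2b was called with library size alone (0.0384) and without the first Nrf1-KO 6 h library (0.0102; from 0.0102 to 0.697 over 25 alternatives). At 24 h, Zfand2a was 0.73 higher in Nrf1-KO (SE 0.0311, adjusted p = 1.31e-19) and Zfand5 0.12 lower (adjusted p = 0.00251), among 4 of 6 called (72% of all genes), 3 higher (35.6%) and 1 lower (36.4%), with 0 past a minimum of 2-fold (12.2%). Zfand1 was 0.33 higher at 24 h (SE 0.129, adjusted p = 0.0232) and was not called without replicate 1 or 3 of WT at 24 h or replicate 3 of Nrf1-KO at 24 h (adjusted p from 0.00608 to 0.111 over 25 alternatives). Zfand3 was 0.09 higher (adjusted p = 0.013), and lost its call with library size alone and without the third WT 24 h library (from 0.000727 to 0.0958). The Zfand5 call was lost without the second Nrf1-KO 24 h library (adjusted p = 0.0552; range from 0.000258 to 0.0552). Zfand6 (0.09, adjusted p = 0.0588) and Zfand2b (0.09, adjusted p = 0.405) were not called, and Zfand6 was called in 9 of 25 alternatives. Zfand2a lay below WT at 6 h and above WT at 24 h with both calls kept in all 25 alternatives.

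The interaction of line and CFZ compares the responses of the 2 lines directly, as the Nrf1-KO response minus the WT response. The comparisons of 6 h and of 24 h with DMSO share their DMSO libraries, and so do the interactions built from them. At 6 h the response of Zfand2a was smaller in Nrf1-KO by 1.16 (log2, SE 0.0604, adjusted p = 2.44e-16 by edgeR's quasi-likelihood test) and that of Zfand5 by 0.88 (SE 0.0534, adjusted p = 1.27e-14). Zfand2b was the other member called, at 0.39 (SE 0.104, adjusted p = 0.00351). These are 3 of 6 members (38.3% of all genes tested), 1 higher (19.8%) and 2 lower (18.4%), and Zfand2a alone passed a minimum of 2-fold (2.78% of genes). Zfand1 (0.13, SE 0.148, adjusted p = 0.514), Zfand3 (0.09, SE 0.0497, adjusted p = 0.166) and Zfand6 (-0.05, SE 0.0684, adjusted p = 0.619) did not pass. The value of Zfand2b includes its lower level in Nrf1-KO in DMSO (-0.27), and at 6 h of CFZ the lines were not called apart (0.11, adjusted p = 0.199). That of Zfand2a includes its higher level in Nrf1-KO in DMSO (0.33). At 6 h of CFZ Zfand2a was 0.84 lower in Nrf1-KO, a difference under 2-fold.

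At 24 h all 6 members were called (59.8% of all genes), 5 higher (29.7%) and 1 lower (30%), with 0 past a minimum of 2-fold (8.6%). Zfand2a was at 0.40 (SE 0.0587, adjusted p = 5.52e-07 by edgeR's quasi-likelihood test), Zfand1 at 0.46 (SE 0.157, adjusted p = 0.0125), Zfand2b at 0.36 (SE 0.117, adjusted p = 0.00872), Zfand3 at 0.26 (SE 0.0482, adjusted p = 2.18e-05), Zfand6 at 0.21 (SE 0.0641, adjusted p = 0.00655) and Zfand5 at -0.22 (SE 0.0513, adjusted p = 0.000568). For Zfand1 and Zfand2b a positive value means a smaller fall. Zfand2b was already lower in Nrf1-KO in DMSO (-0.27 against WT), and at 24 h the lines were not called apart (0.09, adjusted p = 0.405). Zfand6 was at -0.11 in DMSO and at 0.09 at 24 h, where it was not called (adjusted p = 0.0588). Zfand3 was at -0.17 in DMSO and 0.09 at 24 h, Zfand5 at 0.10 and -0.12, and Zfand2a at 0.33 and 0.73. The interactions of these members thus hold a DMSO difference as well. Zfand1 was not called without the first WT DMSO library (adjusted p = 0.0518; from 0.00362 to 0.0518 over 25 alternatives), and Zfand6 was not called with library size alone (adjusted p = 0.0868; from 0.00197 to 0.0868).

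The change of this interaction from 6 to 24 h, a comparison added after the values were seen, was 1.57 for Zfand2a (SE 0.0466, adjusted p = 4.11e-22 by edgeR's quasi-likelihood test) and 0.66 for Zfand5 (SE 0.0499, adjusted p = 2.09e-12). Zfand6 was at 0.25 (SE 0.0659, adjusted p = 0.00221) and Zfand3 at 0.18 (SE 0.048, adjusted p = 0.00354), giving 4 of 6 members called (43% of all genes), all higher (20.7%, against 22.2% lower), with Zfand2a past a minimum of 2-fold (4.18%). With library size alone, Zfand3 (adjusted p = 0.201; from 0.000658 to 0.201) and Zfand6 (adjusted p = 0.0527; from 0.000204 to 0.0527) were not called. Zfand2a ranked 135th from the highest among 11762 genes. Zfand1 (0.33, SE 0.174, adjusted p = 0.133) and Zfand2b (-0.03, SE 0.121, adjusted p = 0.889) did not pass, but Zfand1 did without the second WT 24 h library (adjusted p = 0.0473; from 0.0473 to 0.357).

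**Figure D4:**
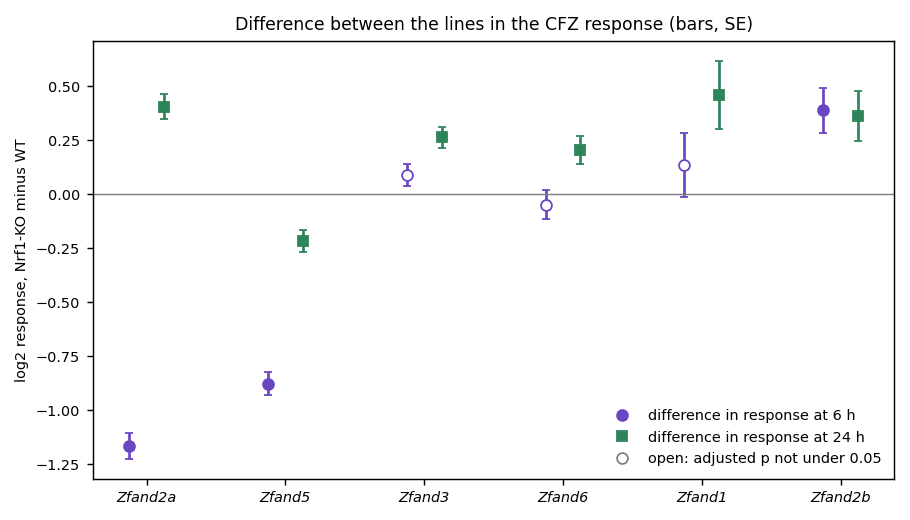
Nrf1-KO response minus WT response (log2) for each Zfand gene at 6 h and 24 h; error bars are SE, open points did not pass an adjusted p of 0.05. Zfand2a moves from -1.16 to 0.40 and Zfand5 from -0.88 to -0.22.

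The genes around the family were described with 4 lists. Heat shock genes, the set in which Zfand2a is a known HSF1 target, were called higher in 19 of 19 tested in WT at 6 h, where 35.6% of all genes were (median 2.09 on the log2 scale; over all genes tested, the medians of these comparisons lay between -0.02 and 0.03) and in 19 of 19 in Nrf1-KO (34.5% of all genes, list median 2.15). Hspb1 did not pass the expression filter. Hsph1, which encodes an HSP110 chaperone, rose by 3.33 and Dnajb1, an HSP40, by 3.32 in WT at 6 h. At 24 h the counts were 18 higher and 1 lower in WT (43.2% and 40.5% of all genes, list median 1.47) and 19 higher in Nrf1-KO (44.4%, list median 1.72), where Cryab, a small heat shock protein, rose by 5.21. The 1 lower gene was Fkbp4, an HSP90 co-chaperone, which fell by 0.51. The interaction of these genes at 6 h was higher for 13 and lower for 2 of 19 (19.8% and 18.4% of all genes, list median 0.24). That of Zfand2a was -1.16 at 6 h and 0.40 at 24 h. At 24 h the interaction of the heat shock genes was higher for 13 and lower for 3 (29.7% and 30% of all genes, list median 0.50). Hspa1b was at 1.89 and Hspa1a at 1.88. Hspa1a and Hspa1b are near-identical copies, so how reads were split between them is uncertain.

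The p97 and 19S partners had interaction values below 0 at both times. In WT, 16 of 16 tested were higher at 6 h (35.6% of all genes, list median 1.45) and at 24 h (43.2%, list median 1.62), with Nploc4, a p97 cofactor, at 1.93 at 6 h and Ufd1l at 2.16 at 24 h. In Nrf1-KO, 13 of 16 were higher at 6 h (34.5% of all genes, list median 0.29) and none lower, with Psmc1, Psmc3 and Psmd2 not called, and 15 higher and 1 lower at 24 h (44.4% and 41.1%, list median 0.52, the lower one being Psmc1). The interaction was lower for 16 of 16 at 6 h (18.4% of all genes, list median -1.12) and 16 of 16 at 24 h (30%, list median -0.99), with Psmd1 at -1.41 at 6 h and Psmc4, a 19S ATPase, at -1.44 at 24 h. At 6 h Zfand2a (-1.16) and Zfand5 (-0.88) had values of this sign, and at 24 h Zfand2a was at 0.40 and Zfand5 at -0.22.

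Genes known to rise with arsenite or metals were 8 higher and 2 lower of 10 in WT at 6 h (35.6% and 36.2% of all genes, list median 1.79) and 8 higher and 2 lower in Nrf1-KO (34.5% and 35%, list median 1.13), Mt1 and Mt2, which encode metallothioneins, being the lower ones. Hmox1, haem oxygenase, rose by 3.98 and 3.57. At 24 h they were 7 higher and 3 lower in WT (43.2% and 40.5% of all genes, list median 1.89) and 9 higher and 1 lower in Nrf1-KO (44.4% and 41.1%, list median 1.74), and with 83.8% and 85.5% of all genes called, that all 10 were called says little about the list. The interaction was lower for 6 of 10 and higher for 1 at 6 h (18.4% and 19.8% of all genes, list median -0.33), and lower for 2 and higher for 5 at 24 h (30% and 29.7%, list median 0.21). Srxn1, sulfiredoxin, was at -1.72 at 6 h and Slc7a11, the cystine transporter, at 1.12. The change of the interaction from 6 to 24 h was higher for 9 of 10 (20.7% of all genes, list median 0.53), with Srxn1 at 2.44 and Osgin1 at 1.10. The largest interaction values of the list at 24 h were Slc7a11 at 1.54 and Nqo1 at 1.05, with Srxn1 at 0.72 (SE 0.0513). The 2 lower ones were Gclm at -0.39 and Hmox1 at -0.19.

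Of the other genes with AN1 or A20 fingers, 5 were tested (Otud7a was not), and with 5 genes their counts cannot be set apart from the shares of all genes called, given beside them. In WT, 3 were higher and none lower at 6 h (71.9% of all genes were called, list median 0.35), and 4 higher and 1 lower at 24 h (83.8%, list median 0.44). In Nrf1-KO, 4 were higher and none lower at 6 h (69.5%, list median 0.23), and 2 higher and 1 lower at 24 h (85.5%, list median 0.09). The interaction was higher for 1 and lower for 1 at 6 h (38.3%, list median -0.20), and lower for 2 at 24 h (59.8%, list median -0.15). Tnfaip3, which encodes A20 itself and restrains NF-kappaB signalling, rose by 2.74 at 6 h in WT and fell by 0.71 at 24 h. Ighmbp2, a helicase gene, rose by 1.61 in WT and 1.40 in Nrf1-KO at 24 h. Zfand4 had the lowest interaction of the list at 24 h (-0.60, SE 0.158, adjusted p = 0.00163 by edgeR's quasi-likelihood test). All lists were chosen with earlier results of these data known, so their counts are descriptions.

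**Figure D5:**
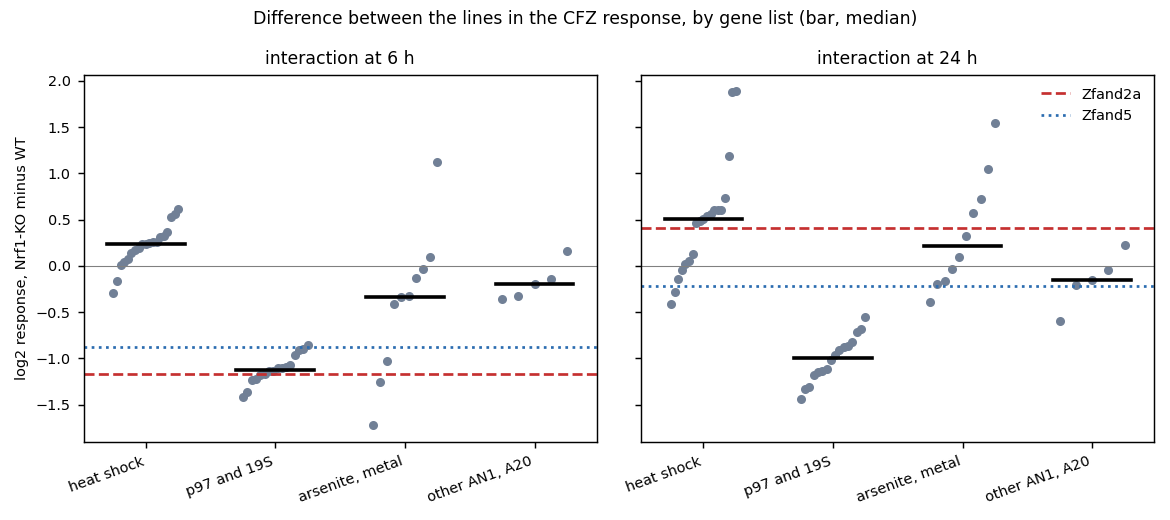
Interaction of line and CFZ (log2) for every tested gene of the 4 lists at 6 h and 24 h; points are genes, black bars list medians, and the red dashed and blue dotted lines mark Zfand2a and Zfand5. The p97 and 19S partners lie below 0 at both times, with medians of -1.12 and -0.99.

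The genes most like each member over the 18 libraries were taken by Pearson's r of log2 CPM, as a description across libraries that share 6 groups. For Zfand2a they were Hsp90b1 (r = 0.994), an ER chaperone gene, Txnrd1 (0.989), thioredoxin reductase and a gene of the arsenite list, and Znrf1 (0.988). For Zfand5 they were Fxr2 (0.993), Fbxo30 (0.989) and Sgtb (0.984), and for Zfand3 Abcc1 (0.992), Appbp2 (0.991) and Slc20a1 (0.990). For Zfand6 they were Tmem87a (0.990), Acbd6 (0.985) and Fam134c (0.985). For the members that fell, the values were lower, with Spef1 (0.971), Cradd (0.966) and Calml4 (0.956) for Zfand1 and Vldlr (0.975), Clec2d (0.969) and P4hb (0.968) for Zfand2b. Both also had low counts, down to 48 per library for Zfand1 and 119 for Zfand2b, and the part of counting noise was not tested. Among the members, Zfand2a correlated with Zfand3 at 0.971 and Zfand5 at 0.961, and Zfand1 with Zfand2b at 0.783.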

How the data were processed

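The authors made stranded mRNA libraries, sequenced paired reads and ran RNA Express, which uses STAR and DESeq2. They deposited raw counts of reads per gene symbol (23420 symbols, 6577 with no count in any library). The build, annotation, versions and use of strand are not given in the sources used here. Of the symbols, 27 look like dates, as spreadsheet programs make from some gene names, and no member is among them. Samples were grouped by their labels and the columns were matched by the names in the labels.

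The counts were fitted with edgeR 4.0.16 (R 4.3.3), using its expression filter (minimum count 10, minimum total 15), TMM scaling and 1 quasi-likelihood model holding all 6 groups. P-values were adjusted by Benjamini-Hochberg over the 11762 genes tested, and a gene is called at an adjusted p under 0.05 without a minimum fold. Each SE was obtained from the log2 fold change and the F statistic, as |log2 fold change| over the root of F. There were 11 comparisons and 1 added after seeing the values. P-values set a difference between groups against the spread between replicate cultures of these lines. They hold no information on the spread between independent WT or Nrf1-KO lines.

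Named genes are the 6 members, Nfe2l1, up to 2 genes with the largest and 2 with the smallest change among those called in each list, and the 3 genes most correlated with each member (log2 CPM, prior count 2). Psmc3, Psmd2, Hspb1 and Otud7a, and Srxn1 at 24 h, were named after their values were seen. The members and lists were chosen with earlier results of these data known.

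Alternatives tried were DESeq2 1.42.0, scaling by upper quartile, by library size alone, no filter, a mean count of at least 10, the compared groups alone, a replicate block, each library left out, and a minimum fold of 2. Replicates differed by more than sampling noise (chi-square per degree of freedom 1.44 to 8.47). With a biological coefficient of variation of 3.13% across genes, even differences of a few percent can be called.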

Additional observations from a re-analysis of the deposited data

Results flagged for a closer look

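The response to CFZ differed between the lines by the test of the interaction (edgeR's quasi-likelihood test, adjusted p under 0.05) for the following members, as the Nrf1-KO response minus the WT response on the log2 scale. At 6 h, where 38.3% of all genes were called, the value was -1.16 for Zfand2a, -0.88 for Zfand5 and 0.39 for Zfand2b. At 24 h it was 0.46 for Zfand1, 0.40 for Zfand2a, 0.36 for Zfand2b, 0.26 for Zfand3, 0.21 for Zfand6 and -0.22 for Zfand5. As 59.8% of all genes were called at 24 h, the count of members called there is not a result about the family. The call of Zfand1 was lost without the first WT DMSO library, and that of Zfand6 with library size alone. The values for Zfand2b include a difference between the lines in DMSO (-0.27), and it was not called between them at 6 h or 24 h of CFZ. Zfand6 was likewise lower in Nrf1-KO in DMSO (-0.11) and not called between the lines at 24 h. Called DMSO differences also enter the values of Zfand3 (-0.17), Zfand5 (0.10) and Zfand2a (0.33). Under CFZ the lines differed at 24 h by 0.09 in Zfand3, -0.12 in Zfand5 and 0.73 in Zfand2a. At 6 h they differed by -0.84 in Zfand2a and -0.78 in Zfand5. The change of the interaction from 6 to 24 h was 1.57 for Zfand2a, 0.66 for Zfand5, 0.25 for Zfand6 and 0.18 for Zfand3, in a comparison added after the values were seen. In that comparison 43% of all genes were called, and Zfand6 and Zfand3 were not called with library size alone.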

How the results depend on the processing

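With a minimum fold of 2, the members called were 2 in WT at 6 h, 3 at 24 h and 0 from 6 to 24 h, and 1, 3 and 2 in Nrf1-KO. They were 0 between the lines in DMSO, at 6 h and at 24 h of CFZ, and 1, 0 and 1 for the interaction at 6 h, at 24 h and its change. Upper-quartile scaling left 2 members called between the lines at 6 h of CFZ, and library size alone left 2 for the change of the interaction. With each library left out, 3 to 5 members were called between the lines in DMSO and 2 to 5 at 24 h of CFZ. Of the other AN1 and A20 genes, 5 were called in Nrf1-KO at 24 h with library size alone, and 1 in the interaction at 6 h and 1 at 24 h with DESeq2 and 1 at 24 h with upper-quartile scaling. In the main fit, 85.5% of all genes were called in Nrf1-KO at 24 h, 54.7% between the lines in DMSO and 72% at 24 h of CFZ. Shares of all genes under the other settings are not given here, so these counts are not results about the members or the list.

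Values near 0 changed sign. Zfand2b in WT at 6 h was -0.00602 with DESeq2, -0.0922 with upper-quartile scaling, -0.115 with library size alone, -0.0111 with no filter, and -0.00746 to 0.0644 with each library left out. Zfand1 between the lines at 6 h of CFZ was -0.00768 with no filter and -0.0518 to 0.111 with each library left out. Zfand2b in the change of the interaction was 0.00128 with no filter and -0.143 to 0.0606 with each library left out. The cause was not tested.

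Same-numbered replicates deviated together little on average (mean correlation 0.01 over 45 pairs, from -0.0494 to 0.0972). Of 18 libraries, 9 correlated best with their own number, and the count expected without a shared effect was not worked out. A fit with the replicate block called 5 members in WT at 6 h and 6 in the interaction at 24 h, the same counts as without it. It changed no call of a member. In the main fit, 71.9% and 59.8% of all genes were called in these comparisons, so the counts are not results about the members. Library size alone in place of TMM shifted the median of all genes by -0.13 in WT at 6 h and -0.18 in Nrf1-KO at 24 h, and the share of calls that were higher in WT at 6 h from 49.6% to 35.4%. Depth limits the low members, with 48 counts as the lowest.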
